A study of Drosophila melanogaster with 2 samples.

Results

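HmgZ and HmgD encode closely related chromatin proteins of the high mobility group B type, and they lie head to head on chromosome arm 2R of Drosophila melanogaster. The regions described here come from chromatin immunoprecipitation and sequencing (ChIP-seq) of the CG11398 protein. All listed regions whose summit lay inside either gene or within 5 kb of one were chosen by position in the dm6 genome build, with the Ensembl release 115 annotation. The window held 5 of the 2712 thresholded peaks, 23 of the 30000 pooled relaxed regions, 26 of the 30000 relaxed regions of replicate 1 and 20 of the 30000 of replicate 3. The locus itself was picked because its peaks stood out in these same lists. Its counts, signals and densities are therefore given as a description, with no test.

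The experiment had 1 group of 2 biological replicates, numbered 1 and 3. Both came from whole embryos of mixed sex, collected over 0 to 24 h of development, of a stable transgenic line that carries CG11398 with eGFP at its C terminus. Chromatin was sheared by sonication and precipitated with an antibody to GFP. Every embryonic cell type and stage is mixed in this material, so a region may stem from any of them. A relaxed list keeps weak regions on purpose. The thresholded list was chosen by irreproducible discovery rate, a measure of how alike regions rank in both replicates. Its peaks in the window had the same rank in it as in the pooled list. A call there does not by itself show that the replicates gave alike signals. The signal is the value that the authors deposited for each region, with no stated normalization, and read depth is unknown. In the thresholded list the lowest signal was 79.8, the median 115.1 and the highest 1410. The pooled signal was close to the sum of the replicate signals, with a median ratio of 1.00 over 2553 thresholded peaks.

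HMGB-type proteins carry an HMG box, a fold that grips the minor groove of DNA and bends it with little regard for sequence. HmgD is known as an abundant protein of early Drosophila embryo chromatin, where it is present before the linker histone H1 accumulates. HmgZ is its close paralogue. Translated from the annotated coding sequence, HmgZ has 111 residues and HmgD 112, and 74 of 109 aligned residues were identical (67.9%). Sequence of arm 2R is not printed here.

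HmgZ (FBgn0010228, 2R:21697488-21707861) is on the minus strand and HmgD (FBgn0004362, 2R:21701458-21716727) on the plus strand. Each has 4 annotated transcripts from 3 transcription start sites (TSSs). Their 5' parts overlap over 6.404 kb, from 21701458 to 21707861, so that introns of both genes cover the same DNA. The coding exons lie at opposite ends, from 21698125 to 21698540 in HmgZ and from 21715468 to 21715877 in HmgD. All 3 HmgZ TSSs (21702830, 21704501 and 21707861) fall in the overlap, together with the most upstream TSS of HmgD (21701458). The other HmgD TSSs, at 21713356 and 21714136, lie beyond it. With ChIP-seq, a summit in the shared introns cannot be assigned to either gene.

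The thresholded peaks gathered in the shared introns, among the HmgZ start sites, and the strongest, at 417, was 3.04 times the next. All 5 summits were in an intron of HmgZ and 4 were also in an intron of HmgD. None lay in coding sequence or a UTR of these genes. They covered 5390 bp from the first summit to the last.

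The strongest peak (2R:21703222-21703592) had its summit at 21703360, 530 bp upstream of the TSS shared by HmgZ-RA and HmgZ-RC and 1902 bp downstream of the TSS of HmgD-RD, in introns of both genes. Its signal was 417 in the pooled list, 210.4 in replicate 1 and 205.6 in replicate 3. It ranked 74 among all pooled regions, 89 in replicate 1 and 72 in replicate 3. The replicates gave nearly the same deposited value, with a log2 ratio of replicate 1 to replicate 3 of 0.034, and placed the summit at the same base.

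The next peak by signal (2R:21704524-21704939) had its summit at 21704732, 231 bp upstream of the TSS of HmgZ-RB. It measured 137 in the pooled list, 68.7 in replicate 1 and 69.9 in replicate 3, and ranked 939 among the thresholded peaks. It was the only one of the 5 within 500 bp of a TSS, where 54.1% of all thresholded peaks lay. By that window HmgZ counted as having a promoter peak and HmgD did not.

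A close pair followed deeper in the shared intron, 200 bp apart, between the HmgZ-RB and HmgZ-RD start sites. The summit at 21705993 was 1492 bp upstream of the HmgZ-RB TSS, with a signal of 115.5, or 59.3 in replicate 1 and 58.5 in replicate 3. Its neighbour at 21706193 was 1668 bp downstream of the HmgZ-RD TSS, with a signal of 81.0, or 40.1 in replicate 1 and 40.2 in replicate 3. The latter ranked 2637 of 2712, near the lower end of the list. The regions of the pair, 2R:21705785-21706200 and 2R:21705985-21706400, overlap, and each has the median width of the list, 416 bp. Both were also separate entries in each replicate list, where they overlap as well. Each is counted as a peak of its own in all counts and densities here. Whether they are separate sites was not tested. Over all arms, 28 of 2706 gaps between neighbouring thresholded summits were as short as 200 bp.

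The fifth peak lay on the other side, outside HmgD. Its summit at 21700803 was 655 bp upstream of the TSS of HmgD-RD and 2027 bp downstream of the nearest HmgZ TSS, in the HmgZ intron. It measured 97.4 in the pooled list, 45.9 in replicate 1 and 50.2 in replicate 3, and ranked 1829. The replicate 3 summit lay 38 bp from the pooled one, the largest shift among the 5 peaks.

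**Figure D1:**
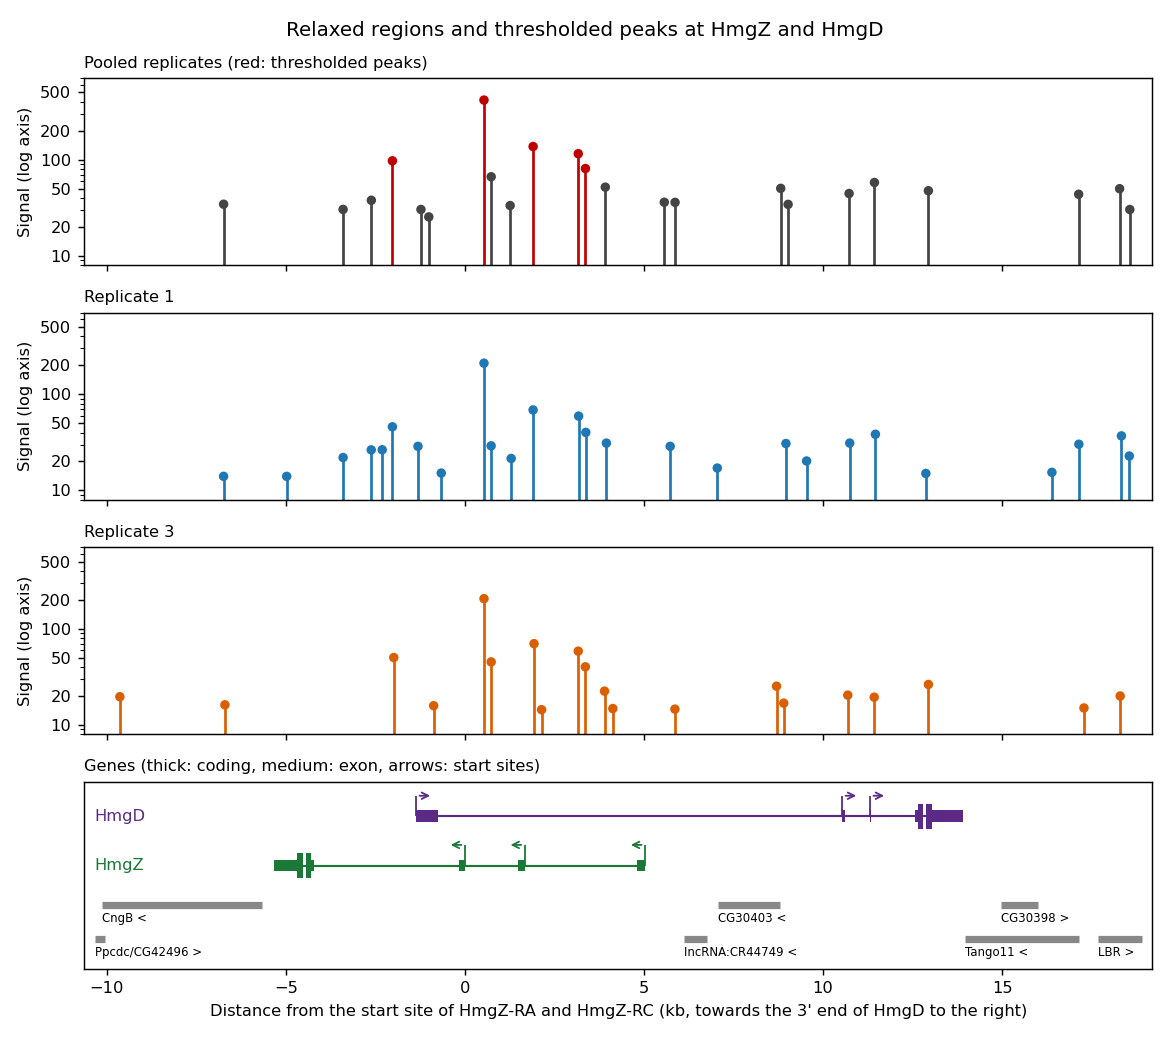
Signal of each listed region (log axis) against the distance of its summit from the start site of HmgZ-RA and HmgZ-RC in kb, for the pooled list, replicate 1 and replicate 3, above the annotated genes. The 5 thresholded peaks (red), from 81.0 to 417, stand to either side of that start site, while the regions at the downstream HmgD start sites stay at 44.6 and 58.0.

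The weaker regions filled the gaps and carried on towards the neighbouring genes. The 18 pooled regions that were not thresholded had signals from 25.4 to 66.5, with a median of 37.0. The strongest of them, at 66.5, had its summit at 21703561 and was listed over the same interval as the strongest peak, 201 bp from its summit. In replicate 3 this shoulder reached 45.2 and rank 1976, and in replicate 1 it was 29.1 at rank 7032. Among the regions of the window it was the nearest to the thresholded list from outside, at rank 3854 of the pooled list with a -log10 q-value of 2.77. The weakest thresholded peak of the window had rank 2637 and 3.02. An interval listed with a pair of summits was rare: the pooled list held 2 among 29998 intervals, the other one near CG31145 on 3R, whose signals were 677 and 81.0.

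The strongest region was also narrow. It was 371 bp wide in the pooled list, 275 bp in replicate 1 and 251 bp in replicate 3, compared with median widths of 416, 424 and 396 bp. Of the pooled regions 1.06% were as narrow or narrower (318), and of the thresholded peaks 11.7% (316). Nearly all regions this narrow were thus thresholded peaks, and a narrow region among strong peaks is no trait of this locus.

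No HmgD start site had a thresholded summit within 500 bp. The most upstream HmgD TSS had relaxed regions at 142 bp (30.4) and 361 bp (25.4) downstream, both in the 5' UTR of HmgD-RD. The TSS shared by HmgD-RA and HmgD-RC had a region at 200 bp downstream with a pooled signal of 44.6, or 31.1 in replicate 1 and 20.4 in replicate 3. The region at 128 bp downstream of the HmgD-RB TSS had 58.0, or 38.4 in replicate 1 and 19.4 in replicate 3. Both were higher in replicate 1 in their own lists, by 0.61 and 0.98 on the log2 scale, and neither was thresholded. A region in the HmgD coding sequence, 1634 bp downstream of the HmgD-RB TSS, had 47.6 and was the other way round, with 15.0 in replicate 1 and 26.4 in replicate 3.

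The most upstream HmgZ TSS, that of HmgZ-RD, had no listed pooled summit within 500 bp. The nearest, at 534 bp upstream, had 36.1, and another at 835 bp upstream had 36.1 as well. Between HmgZ-RD and HmgZ-RB a region at 1113 bp downstream of the HmgZ-RD TSS had 51.9, or 31.1 in replicate 1 and 22.5 in replicate 3. Near the HmgZ-RB TSS, 410 bp downstream, a region of 33.4 had a summit match in replicate 1 (21.5) and none in replicate 3.

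Some neighbouring genes had relaxed regions near a TSS, and none had a thresholded peak there within the window. CngB, which encodes a subunit of a cyclic nucleotide-gated channel, had one at 6 bp upstream of a TSS with a pooled signal of 34.5. CG30403 had regions at 34 bp and 240 bp upstream of its TSS, with 50.4 and 34.4. Tango11 had one at 4 bp upstream (43.7). LBR, which encodes the lamin B receptor of the inner nuclear membrane, had regions at 376 bp (49.99) and 661 bp (30.4) downstream of a TSS. CG30398 and lncRNA:CR44749 had no pooled summit within 500 bp of a TSS. At the edge of the window, Ppcdc and CG42496 share a TSS whose thresholded peak (82.0, at 19 bp upstream) lay 9527 bp from the nearest of the 5 peaks. On the HmgD side the next thresholded peak was 178051 bp away, near Fili.

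Taken by position, 11 of the 23 pooled summits were within 500 bp of an annotated TSS, 6 of them at HmgZ or HmgD. Of all pooled summits 32.8% were. In all, 12 lay in an intron of HmgZ, 13 in an intron of HmgD and 7 in an intron of both. A UTR held 2, coding sequence 1, and 4 were outside both genes.

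The replicates gave closer signals at the thresholded peaks than at the relaxed regions around them. The thresholded list rests on the pooled list and both replicate lists. The 5 peaks had the same rank in it as in the pooled list, down to rank 2637. Down to that rank it thus held the strongest pooled regions. A thresholded call alone therefore does not show that the replicates gave alike signals. The part of signal strength in the closer signals was not tested. The log2 ratios of the 5 peaks ran from -0.13 to 0.034 when summits within 100 bp were matched, with a median of -0.0032. Over all 2553 thresholded peaks with such matches the median was 0.18 (SD 0.54). With the strongest overlapping region taken from each replicate, the medians were 0.018 for the 5 peaks and 0.18 for all 2712. By overlap the close pair at 21705993 and 21706193 drew on the same replicate regions. Its shared ratio is the median of 0.018, so these 5 values are not independent. These ratios rest on signals as deposited. With each replicate's signals divided by their own median over the thresholded peaks, the medians by overlap were -0.17 and -0.01. The SD over all 2712 was 0.51, and a lean towards either replicate was not tested. The 7 relaxed regions that had a summit match in both replicates without being thresholded ranged from -0.81 to 0.98. Of the 23 pooled regions, 12 (52.2%) had a summit match in both replicates, compared with 36.6% of all 30000 pooled regions. Another 7 had a match in replicate 1 alone, 2 in replicate 3 alone and 2 in neither. For these latter counts no share over all regions is given, so they describe the window only. By overlap of at least 1 bp, 20 of 23 (87.0%) were matched in both, while percent called over all 30000 pooled regions was 58.7. In the window 18 of 23 pooled signals were above the list median of 33.6, and the part of signal strength in that share was not tested.

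**Figure D2:**
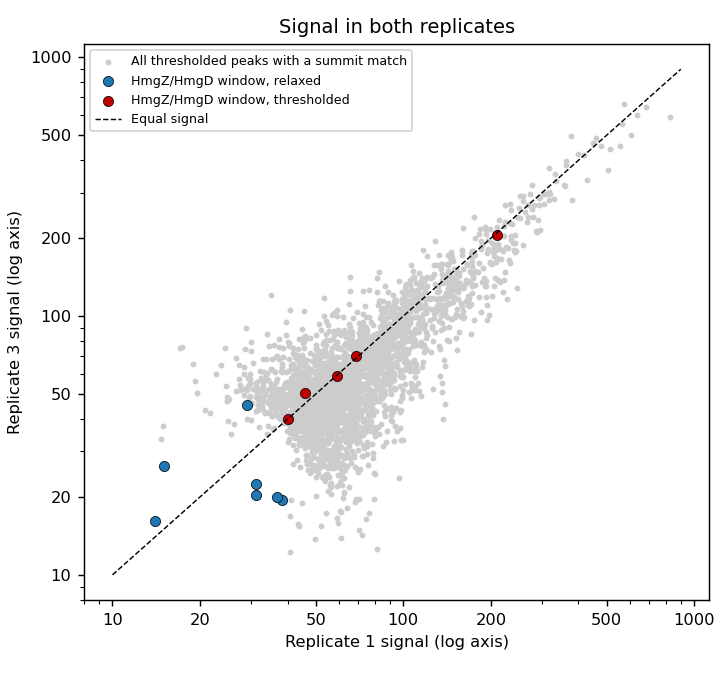
Signal in replicate 3 against replicate 1 (both log axes) for regions with summits within 100 bp of the pooled summit. The 5 thresholded peaks of the window (red) lie close to the line of equal signal, whereas 7 relaxed regions (blue) scatter on both sides of it. Grey points are all 2553 thresholded peaks with such matches.

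Some regions were seen in 1 replicate only. Replicate 1 had 8 of its 26 regions without an overlapping region in replicate 3, with signals from 14.01 to 28.8. Replicate 3 had 1 of 20, at 19.6, inside CngB and 1612 bp downstream of a Ppcdc TSS. The same shares over the whole replicate lists are not given here, so these counts describe the window and are no trait of it. The median signal in the window was 28.8 in replicate 1 and 20.2 in replicate 3, compared with list medians of 20.3 and 17.0.

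Peak density was the feature for which the locus was picked. The window of 29.24 kb held 0.171 thresholded peaks per kb, compared with 0.0203 over the 6 main arms, which is 8.44 times as many. For the pooled relaxed regions the values were 0.787 and 0.224 per kb, a ratio of 3.51. Within the 6.404 kb overlap of both genes, 4 thresholded peaks gave 0.625 per kb. Each relaxed list, pooled, replicate 1 or replicate 3, had 9 summits in that overlap.

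Every annotated gene was then given its own 5 kb flanks and counted in the same way. HmgZ and HmgD each had 5 thresholded summits, a count that 80 of 18164 genes reached (percent called 0.44). Of all genes, 31.9% had at least 1. By density, 193 genes were at least as dense as HmgZ (0.245 per kb) and 330 as HmgD (0.198 per kb), and overlapping genes share peaks in this count. Cutting the arms into 4577 intervals as long as the window, 46 held 5 or more thresholded summits (1.01%) and 68 held 23 or more pooled summits (1.49%). The median interval had 0 and 5. These shares describe where the locus stands and are no support for it, since it was chosen for this count.

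**Figure D3:**
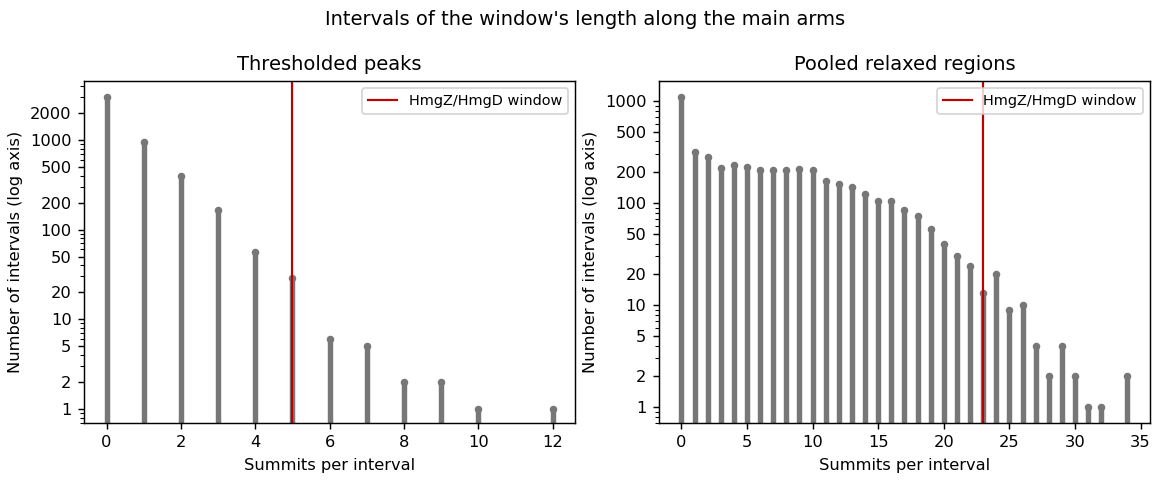
Number of intervals of 29.24 kb along the main arms (log axis) by how many summits they hold, for thresholded peaks and pooled relaxed regions. The red lines mark the HmgZ and HmgD window at 5 and 23, towards the right end of both distributions.

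Some gene windows were denser in thresholded summits than these, with overlapping windows represented by the densest. After overlapping windows were merged, the 10 densest were those of MED15 (7 peaks, 0.532 per kb), lncRNA:CR45541 (0.481), lncRNA:CR43287 (0.462), CG42780 (0.458), lncRNA:CR43423 (0.451), Or85f (0.440), Hakai (0.421), lncRNA:CR45355 (0.390), lncRNA:CR45251 (0.387) and Bacc (6 peaks, 0.386). HmgZ and HmgD were not among them. These windows ran from 10.3 to 15.5 kb, shorter than those of HmgZ (20.4 kb) and HmgD (25.3 kb). The density was not adjusted for gene length.

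The 5 summits were closely spaced. The gaps between the 5 summits were 2557, 1372, 1261 and 200 bp, while the median gap between neighbouring thresholded summits over all arms was 17.9 kb. Joining summits at most 2 kb apart put 4 of the 5 in a cluster that ran over 2.833 kb. Of 2345 such clusters, 2049 (87.4%) held a lone peak and 11 (0.469%) held 4 or more. Those with more than 4 were at Raf (9), which encodes a kinase of the MAP kinase cascade, and at Bacc and CHES-1-like (5 each). The others with 4 were at cbt, ph-p, lncRNA:CR44149, CG9837, by, lncRNA:CR45355 and mbc. By their strongest peak, HmgZ and HmgD stood just below lncRNA:CR44149 (423) and above CG9837 (402) among these. In the window the pooled relaxed summits were spaced by a median of 748.5 bp, compared with 1537 bp over all arms.

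The arrangement of the genes was then compared with that of other pairs. The annotation holds 207 pairs of protein-coding genes on opposite strands that overlap head to head as HmgZ and HmgD do, so that each start lies inside the other gene. A thresholded summit lay in the overlap of 18 pairs (8.7%), and 4 or more lay in 1 of them (0.483%), that of HmgD and HmgZ. As the locus was picked for its peaks, this standing is a description and no support. The overlap at HmgZ and HmgD is long, since 14 of the 207 were at least as long and the median was 0.476 kb, and the count was not adjusted for length. In all, 53 of 2712 thresholded summits (1.95%) lay inside protein-coding genes on both strands, 4 of them here.

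The DNA under the 5 peaks was rich in GC for this list. With 100 bp taken each way from a summit, GC content was 49.8% at 21700803, 44.8% at the strongest peak, 56.7% at 21704732, 51.2% at 21705993 and 53.2% at 21706193. All 5 were above the upper quartile of the thresholded peaks (43.8%), whose median was 38.3%. The peak at 21704732 was the richest, and 1.33% of thresholded peaks were as rich, while 21.9% were as rich as the strongest one. Pooled relaxed regions had a median of 44.8% over all arms and 46.3% in this window.

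Short consensus motifs were searched on both strands in the same stretches. The Forkhead core TGTTTAC, present at 8.92% of thresholded peaks, was at none of the 5 peaks and none of the 23 pooled regions. The homeodomain core TAATTA, the DRE core ATCGAT, the E-box CATATG and the Zelda site CAGGTAG were at none of the 5 either, with 11.9%, 10.4%, 7.56% and 1.03% over all thresholded peaks. The TATA box TATAAA was at the strongest peak (26.7% of all), and GAGAG was at the summits 21700803 and 21706193 (26.8% of all). With 5 windows these are descriptions of letters and carry no statement on any factor.

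HmgZ and HmgD were set beside other genes of the HMG-box family, in a list of 19 that includes both. Of these 19 genes, 4 had a thresholded summit within 500 bp of a TSS (21.1%). Of all annotated genes 10.6% did, and of protein-coding genes 12.6%. Among the 14 with a pooled relaxed summit in that distance the share was 28.6%, compared with 22.2% of the 8635 such genes. HmgZ is among the 4, and its locus was picked for its peaks in these same lists, so the share is partly built in. With 19 genes chosen with results known, no more than the count can be said.

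Among the 9 members that bind DNA with little sequence preference or sit in chromatin complexes, HmgZ was the one with a thresholded promoter peak. Dsp1, an HMGB protein known as a corepressor with Dorsal, had a relaxed region at 182 bp downstream of a TSS with 57.6, or 37.2 in replicate 1 and 25.8 in replicate 3. This was close to the 58.0 at HmgD. TFAM, which packages mitochondrial DNA, had 34.1, and the chromatin remodelling subunit genes polybromo and Bap111 had 41.0 and 26.8. The FACT subunit gene Ssrp and the genes tHMG1 and tHMG2 had no pooled summit within 500 bp of a TSS.

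The remaining 10 encode sequence-specific factors, and 3 had a peak. Sox14, a Sox factor induced by ecdysone, had 678 at 245 bp upstream of a TSS, or 359 in replicate 1 and 318 in replicate 3. The peak at cic, which encodes Capicua, a repressor relieved by receptor tyrosine kinase signalling, had 113 at 298 bp downstream. It measured 72.5 in replicate 1 and 31.7 in replicate 3, a much wider gap than at HmgZ. Sox102F had 99.3 at 228 bp upstream, or 42.5 in replicate 1 and 55.9 in replicate 3. The call at cic was lost without replicate 1 and that at Sox102F without replicate 3. SoxN (56.0), Sox100B (43.3), pan (36.6), which encodes the TCF factor of Wingless signalling, D (35.2) and Sox21a (31.2) had relaxed regions. Sox15 and Sox21b had none. In its gene with 5 kb flanks cic held 6 thresholded summits, above the 5 of HmgZ and HmgD, and Dsp1 and TFAM held 2 each.

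Genes of other structural and remodelling proteins of chromatin had promoter peaks in 8 of 48 cases (16.7%). Ssrp is counted in this list and among the HMG-box genes, and without it the share was 8 of 47 (17.0%). Of the 39 with a pooled summit there, 20.5% had a peak. Over all genes the shares were 10.6% and 22.2%. Their median signal was 101.0, while HMG-box genes had 125.1 and all 1468 promoter peaks 115.5. The remodeller Ino80 led with 197, or 106.9 in replicate 1 and 86.3 in replicate 3. It was followed by yem (147), whose product works in histone H3.3 deposition, and the condensin genes Cap-D2 (129) and SMC2 (107). Below were the histone chaperone genes Spt6 (95.3) and dre4 (92.8), the latter the FACT partner of Ssrp, and the heterochromatin protein genes HP4 (85.0) and HP1b (80.4). With either replicate left out, 4 of the 8 kept a peak both times, namely yem, Spt6, Ino80 and Cap-D2.

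Of these 8 summits, 7 also lay near the TSS of another gene, as did 36.9% of all 1468 thresholded promoter peaks. The other TSS was within 500 bp at HP1b (CG7246), HP4 (CG8209), yem (Ctl2), Spt6 (schlank), Ino80 (Aptx), SMC2 (Ercc1) and Cap-D2 (Bub3), and at dre4 there was none. By class, the peaks fell to 2 of 11 linker and architectural genes, 3 of 12 nucleosome assembly genes, 1 of 13 remodelling genes and 2 of 12 condensin and cohesin genes. BigH1, the embryonic linker histone, had a relaxed region of 38.3. Of these 48 genes, the largest number of thresholded summits within 5 kb was 4, at Spt6.

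**Figure D4:**
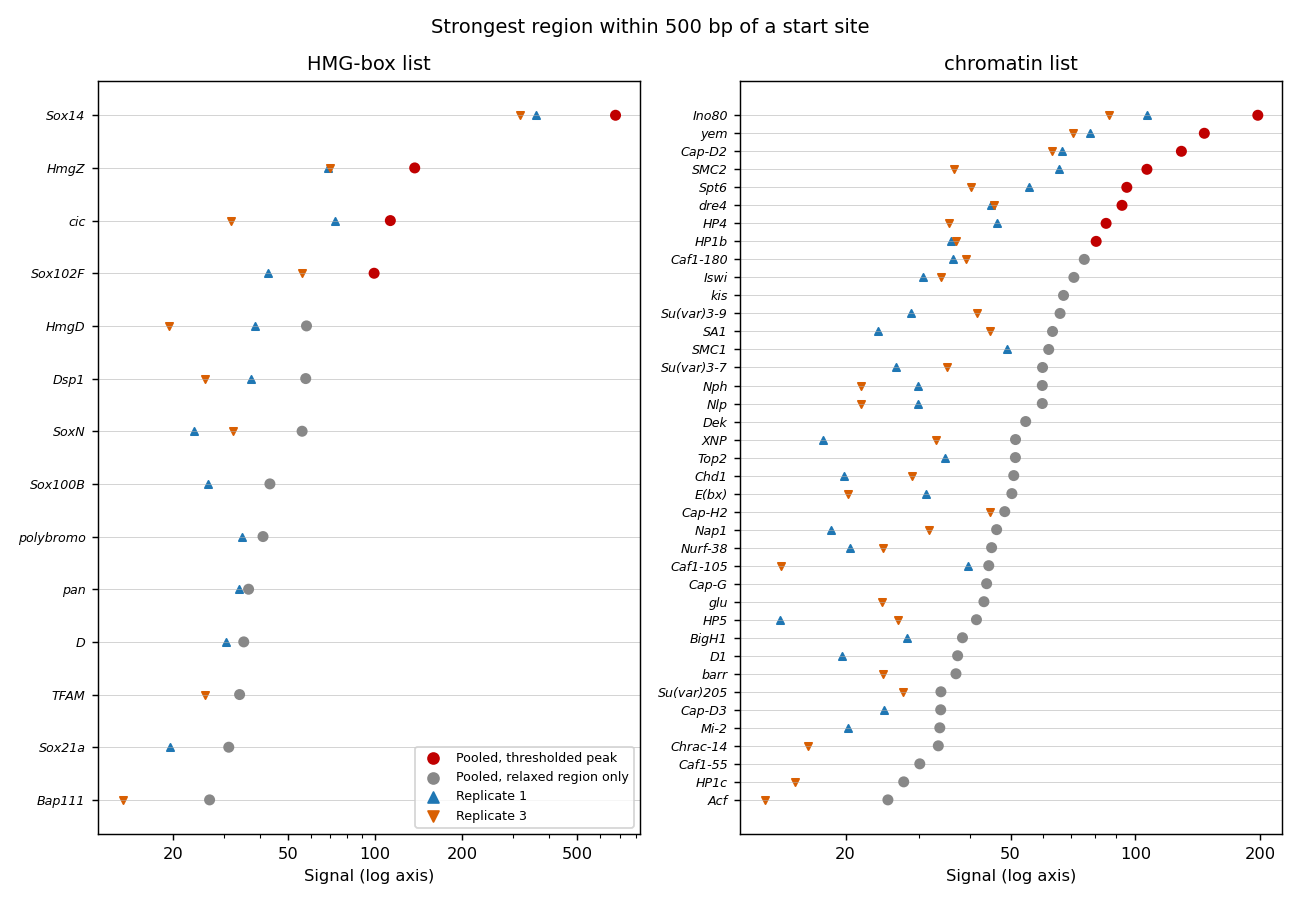
Strongest region within 500 bp of a start site for HMG-box genes (left) and other chromatin genes (right), as signal on a log axis. Red circles are thresholded peaks and grey circles relaxed regions of the pooled list, with triangles for replicate 1 and replicate 3. HmgZ at 137 stands below Sox14 at 678, and HmgD at 58.0 beside Dsp1 at 57.6.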

How the data were processed

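The lists were deposited by the authors in narrowPeak format. Per the notes deposited with them, a control entered each relaxed list, the pooled list combines both replicates, and the thresholded list rests on these 3 lists. For aligner, peak caller, thresholds and normalization, the sources used here give nothing. The signal and the -log10 q-value of each region are the authors' deposited values. The dm6 lists were used, and the control and the dm3 lists were not used here.

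Summits, from the deposited offsets, were counted by position in Python 3.11.15 with pandas 2.3.3 against 18164 annotated genes on 6 main arms, without transposons. The RefSeq genome of the same build gave GC content, motifs and, with Biopython 1.88, protein identity. Replicates were matched by summits within 100 bp unless overlap is named. A peak counted at a promoter within 500 bp of a TSS. Counting was checked on simulated summits. No test was run: the 2 replicates form 1 group, and the members, gene lists and alternatives were chosen with earlier results of these data known. Replicates are labelled biological. Named genes were HmgZ, HmgD, genes in the window, list genes with a promoter peak, and the 10 densest windows and largest clusters. Other list genes were added after their values were seen.

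Alternatives were flanks of 2 and 10 kb, promoter windows of 200 and 1000 bp, gaps of 1 and 5 kb, 50% reciprocal overlap, signals divided by each replicate's median, the stronger 50% of peaks, and the 2712 top regions of a single replicate.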

Additional observations from a re-analysis of the deposited data

How the results depend on the processing

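Of 32 recomputed values for 8 results, 23 stayed within 1.5 times, or within the spread of, those reported. With the stronger 50% of thresholded peaks the window held 3 (0.103 per kb), 2 HMG-box genes (HmgZ and Sox14) had a promoter peak, and 3 other chromatin genes did (yem, Ino80 and Cap-D2), compared with 5.6% of all genes. A promoter window of 200 bp left 0 HMG-box genes (7.49% of all genes), and with 1000 bp there were 6 (13% of all), HmgD and Dsp1 being added. With gaps of at most 1 kb the cluster held 2 peaks. By summits within 100 bp, 52.2% of the pooled regions of the window were matched in both replicates, and over all regions 36.6%. From a single replicate the strongest peak measured 205.6 to 210.4, which follows from the pooled signal being near the sum of both. Leaving out a replicate gave 4 to 6 peaks in the window, 0.137 to 0.205 per kb, and 3 to 5 in the cluster. It gave 3 HMG-box genes either way, as cic was lost without replicate 1 and Sox102F without replicate 3. For the chromatin genes it gave 9 to 10, but 4 of the 8 named held both ways (yem, Spt6, Ino80 and Cap-D2). HP1b, HP4 and SMC2 were lost without replicate 1, and HP1b and dre4 without replicate 3. The former added Su(var)3-9, Caf1-180, kis, Cap-H2 and SA1, and the latter Dek, kis and SMC1. Over all genes the shares were 10.9% without replicate 1 and 10% without replicate 3. No paired analysis was possible because there is 1 group. Read depth is unknown, so no interval was given, and a region missing from a relaxed list is below that list's reach, not absent.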
